A study of Mus musculus with 10 samples.

Results

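Sorted mouse epidermal cells with active Hedgehog signalling from 2 genetic designs were set side by side. The cells of the first design carried Krt14-CREER/Rosa-SmoM2 with Survivin LOF and were taken at 6w TAM, which is read here as 6 weeks after tamoxifen (2 libraries). The cells they were set against carried Inv-CREER/Rosa-SmoM2 and were taken at 8w TAM (2 libraries). They are called Survivin LOF cells and Inv cells. Driver, weeks and Survivin all differ between them, so the 3 cannot be told apart in any difference between them, and the question is how alike the 2 states were. Every gene with a normalized count of at least 10 in 2 or more of the 4 libraries was compared, which kept 20194 of 49671 gene identifiers. Of these, 152 passed only through the Survivin LOF libraries and 839 only through the Inv libraries.

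The other 6 of the 10 libraries of the series entered as context and in the estimate of the spread: Krt14-CREER/Rosa-SmoM2 at 6w TAM and at 8w TAM, and Inv-CREER/Rosa-SmoM2/Krt14rtTA/Survivin-GOF at 8w TAM, with 2 libraries each. All 5 groups share a CREER driver, the Rosa-SmoM2 allele and TAM, and all were sorted by FACS for SmoM2-YFP from skin epidermis, so none is a wild type. The labels do not say whether 2 libraries of a group came from separate mice, and the p-values therefore measure the spread between libraries, which may be technical. The descriptions of both Inv libraries contain the word CTLpool, without saying what was pooled. The labels used here give neither age nor sex, and name no batch.

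SmoM2 is a constitutively active form of Smoothened, the membrane protein that passes the Hedgehog signal on once the receptor Patched releases it. The signal ends in the Gli transcription factors, and its unrestrained activity in skin drives basal cell carcinoma. The Krt14 promoter is active in basal keratinocytes, which hold the stem cells, and the Involucrin promoter in keratinocytes that have begun to differentiate. Survivin, encoded by Birc5, is a subunit of the chromosomal passenger complex that steers chromosome segregation and cytokinesis, and belongs to the inhibitor of apoptosis family.

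The Survivin LOF and Inv libraries also differed in sex chromosome transcripts. Xist, the RNA of the inactive X chromosome, had 30024 and 59594 normalized counts in Survivin LOF libraries, against 194 and 145 in Inv libraries, 7589 and 56185 in Survivin-GOF libraries and between 51 and 118 in the 4 Krt14 SmoM2 libraries. Y-linked genes were present in both groups: Ddx3y had 1336 and 956 normalized counts in Survivin LOF libraries and 2626 and 2909 in Inv libraries. Of 5 sex chromosome genes checked, Xist was called higher and Uty and Eif2s3y were called lower in Survivin LOF cells. Every one of the Survivin LOF libraries is high in Xist and every Inv library is low, so this and the genotypes cannot be told apart. Without the genes of chromosomes X and Y, 2423 genes were called rather than 2484. With the log2 level of Xist as a term of the model, which leans on the other 3 groups, 599 were called. Depth was even, at 8072203 and 8870758 recovered reads in Survivin LOF libraries and 8790428 and 8857690 in Inv libraries, where 3 reads correspond to a normalized count between 6.764 and 7.433. Where both libraries of a group lie under that floor no fold change is given, and floors cover counting error only.

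Birc5 values were not lower in Survivin LOF libraries than in Inv libraries, and both states had less of it than Krt14 SmoM2 cells. It had 382 and 429 normalized counts in Survivin LOF libraries, against 237 and 265 in Inv libraries. The Survivin LOF values were the higher ones and the groups did not overlap. The log2 difference of 0.69 ± 0.28 (SE) did not pass the test (limma, Benjamini-Hochberg adjusted p = 0.138). That SE pools the spread of all 5 groups, and the Survivin-GOF libraries had 7277 and 16384 normalized counts. The lack of a call therefore does not show that the 2 states had the same Birc5 level. With Xist as a term of the model the difference turned to -1.54. The slope of that term comes from differences between libraries of the same group. Xist differed most within the Survivin-GOF group (7589 and 56185), whose libraries also differed in Birc5, so this value says little of Survivin LOF against Inv cells. The Krt14 SmoM2 libraries had 961 and 1103 at 6 weeks and 1005 and 926 at 8 weeks. Against Krt14 SmoM2 cells of the same 6 weeks, Birc5 in Survivin LOF cells fell by 1.35 on the log2 scale (SE 0.28, adjusted p = 0.00423). Inv cells fell by 1.94 against Krt14 SmoM2 cells at 8 weeks (SE 0.28, adjusted p = 0.000744). Since cells without the LOF label fell too, the fall does not by itself check that label. Which exons the LOF allele removes is not given in the sources used here, so remaining reads do not measure remaining protein. The labelled epithelial origin was plain in all 4 libraries, since the basal keratin gene Krt5 had 143446 and 116759 normalized counts in Survivin LOF libraries and 94430 and 91286 in Inv libraries. Krt14 had 77310 and 66103 in Survivin LOF libraries and 58626 and 54039 in Inv libraries.

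Across the transcriptome about as many genes were shown to lie within 2-fold as were not, and many of the latter were undecided. The 95% interval of the difference lay within 2-fold either way for 10501 genes, 52% of those tested, and for 44.3% to 45.1% with 1 of the 4 libraries left out. With no filter on low values the share was 34.7%, and with Xist as a term 7.13%. The median absolute log2 difference was 0.324. At an adjusted p of 0.05, 2484 genes (12.3%) differed, 1008 higher (4.99%) and 1476 lower (7.31%) in Survivin LOF cells. A difference of at least 2-fold was called for 1299 genes (6.43%), 380 higher (1.88%) and 919 lower (4.55%). The filter partly sets that balance. The 839 genes that passed only through the Inv libraries could only be lower, and the 152 that passed only through the Survivin LOF libraries only higher. A further 711 genes (3.52%) were called although their interval stayed within 2-fold, and 7920 genes (39.2%) were neither called nor shown to lie within 2-fold. The values of the groups did not overlap for 12374 genes (61.3%), so non-overlap by itself is common here. With 1 library left out the calls were fewer: 1165 without Survivin LOF library 1, 1373 without Survivin LOF library 2, 888 without Inv library 1 and 814 without Inv library 2. Of all calls 40.6% were higher in Survivin LOF cells, a share that was 55.3% after rescaling by the median of ratios and 51.3% after quantile normalization, so the balance of directions depends on the scaling. The median log2 difference over all genes tested was -0.0986 as deposited, -0.00427 after the median of ratios and 0.00882 after quantile normalization, and differences are given on the deposited scale.

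**Figure D1:**
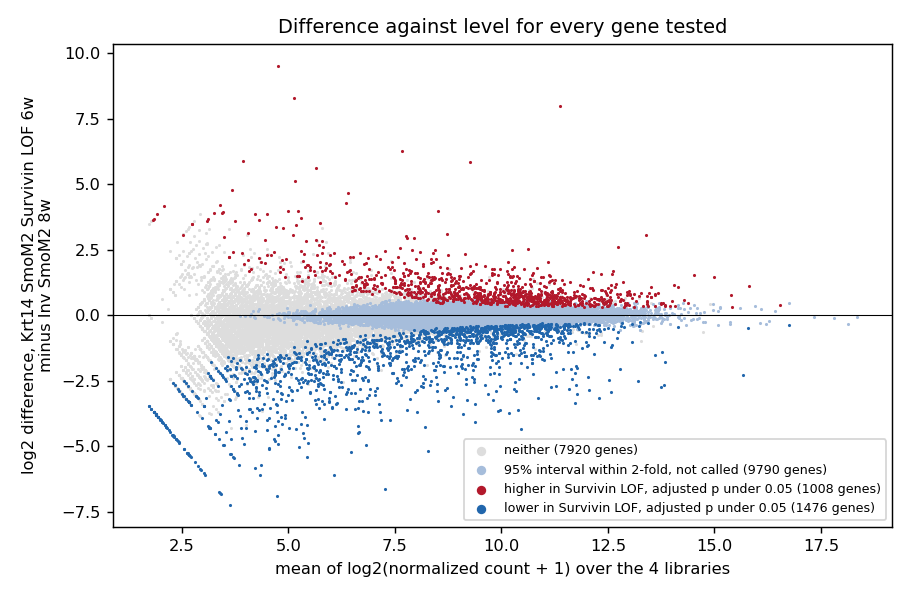
Log2 difference (Survivin LOF minus Inv, y axis) of each of 20194 genes against its mean log2(normalized count + 1) over the 4 libraries (x axis); colours mark the 1008 genes called higher, the 1476 called lower, and those whose 95% interval lies within 2-fold. Most points at high level sit near 0, and more genes were called lower by at least 2-fold (919) than higher (380). That balance is partly set by the filter, which 839 genes passed only through the Inv libraries and 152 only through the Survivin LOF libraries. The balance of all calls also depends on the scaling.

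The distance between 2 libraries was taken as the root mean square of their log2 differences over the genes tested. Survivin LOF and Inv libraries were 0.963 to 1.06 apart over the 4 pairs, with a Pearson correlation across genes of 0.942 to 0.947 (genes are not independent replicates). Replicates were 0.677 apart in Survivin LOF cells and 0.5 apart in Inv cells. Survivin LOF libraries were on average 1.01 from Inv libraries, 1.07 from the Survivin-GOF libraries, 1.13 from Krt14 SmoM2 at 8 weeks and 1.23 from Krt14 SmoM2 at 6 weeks, their own driver and week. The Survivin-GOF libraries overlapped the Inv libraries in this, with pairs 0.965 to 1.16 from Survivin LOF libraries, and Survivin LOF library 1 was nearer to Survivin-GOF library 1 (1.028) than to either Inv library (1.057 and 1.035). Inv libraries were 0.914 from the Survivin-GOF libraries and 1.07 from Krt14 SmoM2 at 8 weeks. These distances are descriptions and share libraries.

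**Figure D2:**
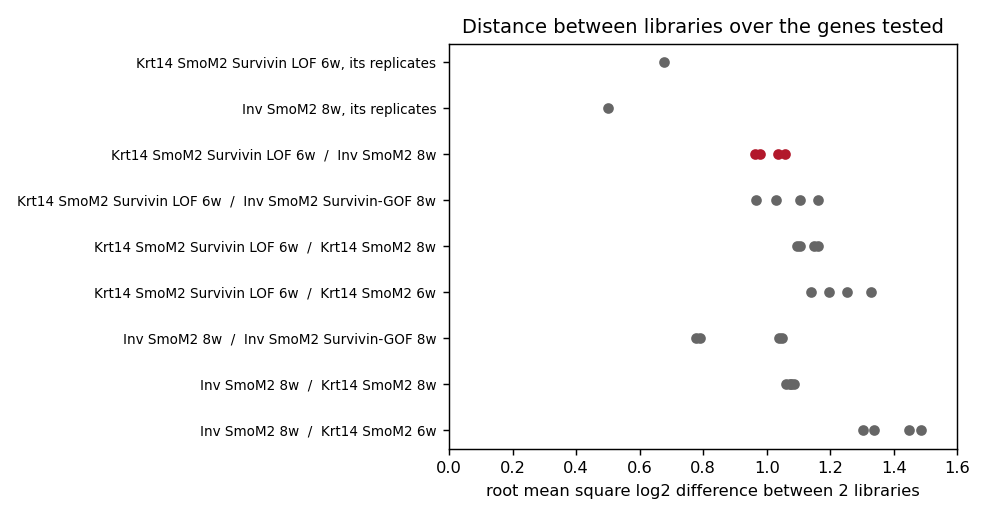
Root mean square log2 difference between pairs of libraries (x axis), one point a pair, for the groups named on the y axis. The Survivin LOF and Inv pairs (red) lie at 0.963 to 1.06, above the distances between replicates and below those between Survivin LOF and Krt14 SmoM2 libraries of 6 weeks.

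The 2 states shared much of what set them apart from Krt14 SmoM2 cells. Each was set against Krt14 SmoM2 cells of its own week. Survivin LOF cells at 6 weeks differed in 6705 genes (33.2%), 21.5% higher and 11.7% lower, and Inv cells at 8 weeks in 4227 genes (20.9%), 12.6% higher and 8.36% lower. These 2 comparisons share no libraries. Of the genes called in both, 2778 moved the same way (1695 higher and 1083 lower) and 91 moved opposite ways. Leaving out 1 library at a time, the shared count was 1387 to 2367 (1475 without Inv library 1, 1387 without Inv library 2, 1586 without Krt14 8-week library 1 and 1491 without Krt14 8-week library 2), and the opposite count was 30 to 63. The shared part made up 41.4% of the Survivin LOF calls and 65.7% of the Inv calls, and the opposite part 1.36% and 2.15%. Across all genes tested the 2 sets of differences had a Pearson correlation of 0.575 and a Spearman correlation of 0.569, given as a description. The difference of these differences, (Survivin LOF minus Krt14 at 6 weeks) minus (Inv minus Krt14 at 8 weeks), was called for 771 genes (3.82%), 428 positive (2.12%) and 343 negative (1.7%). That count was 210 to 538 with any 1 of the 8 libraries left out, the lowest without Inv library 2 and the highest without Krt14 6-week library 1.

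**Figure D3:**
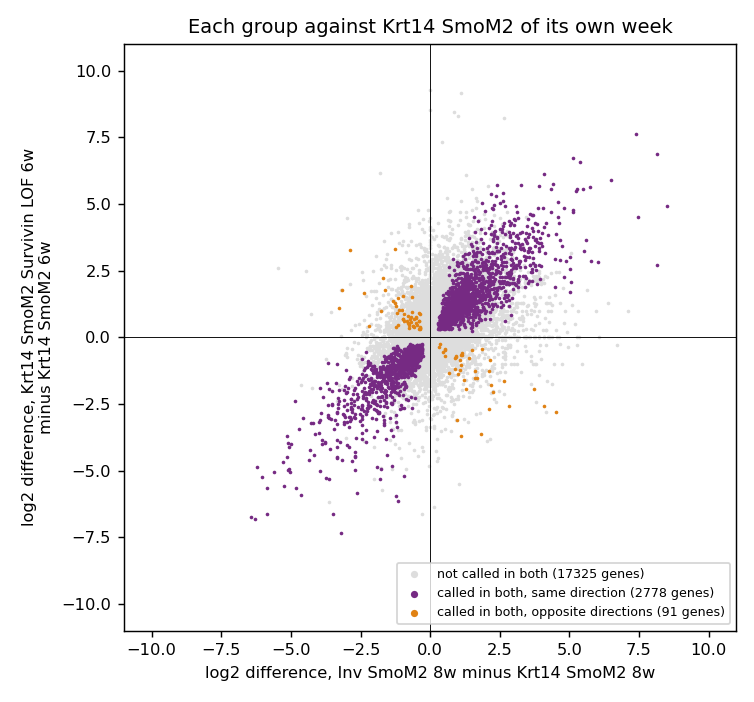
Log2 difference of Survivin LOF cells from Krt14 SmoM2 cells at 6 weeks (y axis) against that of Inv cells from Krt14 SmoM2 cells at 8 weeks (x axis) for 20194 genes. Of the genes called in both, 2778 lie in the quadrants of equal sign (purple) and 91 in those of opposite sign (orange).

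Cell cycle genes were close between the 2 states. Of 37 G2/M and mitosis genes tested, 36 had an interval within 2-fold, with 2 called higher and 4 called lower. The share within 2-fold was 52% of all genes tested and 70.4% with a filter of 50. The median log2 difference of the 37 was -0.08 (0.0197 after the median of ratios), against -0.0986 over all genes. Top2a, the topoisomerase that untangles chromosomes, named after its values were seen, had 7515 and 7675 normalized counts in Survivin LOF libraries and 6828 and 7079 in Inv libraries, and 13299 and 13773 in Krt14 SmoM2 libraries at 6 weeks. The Survivin LOF and Inv values are near each other and both are well under the Krt14 value. Anln and Prc1, both needed for cytokinesis, were called higher, Anln by 0.48 ± 0.09 (SE) on the log2 scale (adjusted p = 0.00781) and Prc1 by 0.33 ± 0.09 (adjusted p = 0.0417). Pttg1, which encodes securin, had 243 and 219 in Survivin LOF libraries and 394 and 466 in Inv libraries, a log2 difference of -0.89 ± 0.17 (adjusted p = 0.00657). The proliferation marker Mki67 had 14705 and 15963 in Survivin LOF libraries and 20220 and 22158 in Inv libraries, a log2 difference of -0.47 ± 0.12 (adjusted p = 0.0341). With any 1 of the 4 libraries left out, 0 or 1 of the 37 were called higher and 0 or 1 lower, while 35 or 36 kept an interval within 2-fold. Against Krt14 SmoM2 cells of the same week, 28 of the 37 fell in Survivin LOF cells and 30 in Inv cells. The shares of all genes tested that fell were 11.7% and 8.36%.

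Replication genes were close as well. For comparison, 52% of all genes tested lay within 2-fold (70.4% with a filter of 50) and 7.31% were called lower. Of 39 S phase genes tested, 37 lay within 2-fold and 1, the replication initiation factor Mcm10, was called lower, at 290 and 341 normalized counts in Survivin LOF libraries and 544 and 551 in Inv libraries. The maintenance methyltransferase Dnmt1 had 5149 and 5229 in Survivin LOF libraries and 6323 and 6210 in Inv libraries. Against Krt14 SmoM2 cells of the same week, 6 of the 39 fell and 2 rose in Survivin LOF cells, and 3 fell in Inv cells. Of all genes tested, 11.7% fell and 21.5% rose in Survivin LOF cells, and 8.36% fell in Inv cells. Of 11 genes encoding passenger complex subunits or proteins that work with them, 10 lay within 2-fold. Aurkb, the kinase of the complex, named after its values were seen, had 647 and 645 in Survivin LOF libraries and 610 and 610 in Inv libraries, a log2 difference of 0.08 ± 0.11 (SE). The checkpoint kinase Bub1 was called lower, with a log2 difference of -0.52 ± 0.13 (adjusted p = 0.0308), and with any 1 of the 4 libraries left out it was not called.

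Few survival and death genes were called. Of 24 apoptosis regulators, 18 lay within 2-fold, against 52% of all genes tested and 70.4% with a filter of 50. The 18 of 24 are near the second share. Only 1 was called, against 12.3% of all genes tested: the antiapoptotic Bcl2, a known Gli target. Bcl2 had 1730 and 1987 normalized counts in Survivin LOF libraries, against 997 and 915 in Inv libraries and 982 and 850 in Krt14 SmoM2 libraries at 6 weeks and 1072 and 1038 at 8 weeks, so only the Survivin LOF libraries were above the Krt14 range. Its log2 difference was 0.96 ± 0.12 (SE, adjusted p = 0.000522), and it was called with each of the 4 libraries left out in turn. Mcl1, another antiapoptotic member, had 3345 and 3797 in Survivin LOF libraries and 2569 and 2672 in Inv libraries and was not called (adjusted p = 0.078). Of 7 genes of the inhibitor of apoptosis family and its antagonists, Birc3 was called lower, with 409 and 440 in Survivin LOF libraries and 1065 and 1132 in Inv libraries. Birc6, which encodes a giant ubiquitin ligase of the family, had 12039 and 13731 in Survivin LOF libraries and 14764 and 15352 in Inv libraries. Of 24 p53 target genes, Phlda3 and Perp were called higher and Cdkn1a, the cell cycle inhibitor p21, was called lower, at 385 and 393 in Survivin LOF libraries and 781 and 743 in Inv libraries. The 3 of 24 are near the 12.3% called over all genes. None of these 3 was called with any 1 of the 4 libraries left out.

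Of the main readouts of Hedgehog output, Gli1 was close and Ptch1 was not shown to be, and other targets were mixed. Gli1, the standard readout of the pathway, had 4829 and 4735 normalized counts in Survivin LOF libraries and 4194 and 3699 in Inv libraries. The groups did not overlap, the log2 difference of 0.28 ± 0.11 (SE) was not called (adjusted p = 0.124), and its interval lay within 2-fold. Against Krt14 SmoM2 cells of the same week, Gli1 rose by 0.80 in Survivin LOF cells (adjusted p = 0.000344). In Inv cells that difference was -0.14 and not called (adjusted p = 0.405). The difference of these differences was called, at 0.94 ± 0.15 (adjusted p = 0.00802). Ptch1, the receptor and a target, had 36236 and 34645 in Survivin LOF libraries and 26293 and 25906 in Inv libraries (log2 difference 0.44 ± 0.27, adjusted p = 0.324). Its groups did not overlap either, and its interval of -0.15 to 1.03 was not within 2-fold. Ccnd2, the cyclin D2 gene, had 12010 and 12545 in Survivin LOF libraries and 13499 and 13837 in Inv libraries. Of 15 Hedgehog targets tested, 4 were called higher (Bcl2, Igfbp3, Pthlh and Sostdc1), 1 was called lower (Foxe1) and 4 lay within 2-fold. The shares over all genes tested were 4.99%, 7.31% and 52%. Pthlh, which encodes a secreted parathyroid hormone-like factor, had 342 and 314 in Survivin LOF libraries, 107 and 89 in Inv libraries and 1400 to 3043 in Krt14 SmoM2 libraries. Foxe1, a follicle transcription factor gene, had 23 and 10 in Survivin LOF libraries, 139 and 116 in Inv libraries and 372 to 924 in Krt14 SmoM2 libraries. Both genes were therefore far under the Krt14 range in both states, with the Inv cells lower for Pthlh and the Survivin LOF cells lower for Foxe1. Each fit that left out 1 of the 4 libraries called 2 of the 15 higher and 1 lower.

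Several pathway components were higher in Survivin LOF cells. Of 21 tested, 6 were called higher, 2 lower and 13 lay within 2-fold, against 4.99%, 7.31% and 52% of all genes tested. Their median log2 difference was 0.218. Smo, whose reads could come from the endogenous gene or the SmoM2 allele, had 9240 and 9355 normalized counts in Survivin LOF libraries and 7436 and 6743 in Inv libraries (log2 difference 0.39 ± 0.11, adjusted p = 0.0416). Gli2, the main activator Gli gene, had 6217 and 6449 in Survivin LOF libraries and 3422 and 3191 in Inv libraries, a log2 difference of 0.94 ± 0.12 (adjusted p = 0.0007). The co-receptor gene Boc had 2686 and 3182 in Survivin LOF libraries and 1275 and 1204 in Inv libraries, a log2 difference of 1.24 ± 0.15 (adjusted p = 0.000405). Gas1, another co-receptor gene, singled out after its values were seen, had 12106 and 9425 in Survivin LOF libraries and 3741 and 3390 in Inv libraries. In the Krt14 SmoM2 libraries Gas1 had 9704 and 9793 at 6 weeks and 8551 and 8183 at 8 weeks, so the Inv libraries were below both weeks, as were the Survivin-GOF libraries at 4194 and 2226. Shh, the ligand gene, was at 0 and 0 in Survivin LOF libraries, under the floor, and at 32 and 16 in Inv libraries. Fits without 1 of the 4 libraries called 3 or 4 of the 21 higher and 0 to 2 lower.

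Many genes of basal attachment were higher in Survivin LOF cells. Of 22 genes for basal keratins, integrins, laminins and hemidesmosome proteins, 11 were called higher, against 4.99% of all genes tested, 0 were called lower and 14 lay within 2-fold. Their median log2 difference was 0.461, against -0.0986 over all genes. Col17a1, a transmembrane collagen of the hemidesmosome, had 57120 and 50377 normalized counts in Survivin LOF libraries, against 20291 and 18904 in Inv libraries. It was 30942 and 34339 in Krt14 SmoM2 libraries at 6 weeks and 20719 and 23111 at 8 weeks, so that Survivin LOF libraries were the highest and Inv libraries were near the 8-week value. Its log2 difference was 1.45 ± 0.10 (SE, adjusted p = 1.21e-05). Dst, which encodes the plaque protein dystonin, had 80239 and 87373 in Survivin LOF libraries and 38317 and 39510 in Inv libraries, a log2 difference of 1.11 ± 0.10 (adjusted p = 4.73e-05). The keratin gene Krt14 had a log2 difference of 0.34 ± 0.15 and was not called (adjusted p = 0.152). With 1 of the 4 libraries left out, 7 or 8 of the 22 were called higher.

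Many stem cell genes of the follicle were higher too. Of 18 bulge and upper follicle genes tested, 9 were called higher and 1 lower, against 4.99% and 7.31% of all genes tested, with a median log2 difference of 0.596 against -0.0986 over all genes. Postn, the matrix protein periostin, had 26945 and 35465 normalized counts in Survivin LOF libraries, against 3582 and 3918 in Inv libraries, which is 8.25-fold higher. It was 9697 and 12711 in Krt14 SmoM2 libraries at 6 weeks and 7887 and 8701 at 8 weeks, so the Survivin LOF libraries were above and the Inv libraries below all 4 of them. Lgr6, a stem cell receptor gene of the follicle isthmus, had 4465 and 3335 in Survivin LOF libraries and 1602 and 1482 in Inv libraries (log2 difference 1.32 ± 0.19, adjusted p = 0.0012). The bulge keratin gene Krt15 was called higher with an interval within 2-fold, at 10231 and 11201 in Survivin LOF libraries and 7065 and 6548 in Inv libraries. Krt79, a keratin gene of the follicle duct, was the 1 called lower, with 7275 and 5049 in Survivin LOF libraries and 12521 and 11972 in Inv libraries. Against Krt14 SmoM2 cells of the same week, 7 of the 18 fell and 3 rose in Survivin LOF cells, and 13 fell and 0 rose in Inv cells. Of all genes tested, 11.7% fell and 21.5% rose in Survivin LOF cells, and 8.36% fell and 12.6% rose in Inv cells. The difference of these differences was called positive for 6 of the 18, against 2.12% of all genes tested. With 1 of the 4 libraries left out, 4 to 6 were called higher.

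Embryonic follicle progenitor genes were mixed. Of 18 tested, 3 were called higher, 1 lower and 11 lay within 2-fold, against 4.99%, 7.31% and 52% of all genes tested. Sox9, a master factor of follicle stem cells, had 4626 and 4142 normalized counts in Survivin LOF libraries, 2872 and 3046 in Inv libraries and 7296 to 8461 in Krt14 SmoM2 libraries. Nfix, a nuclear factor I gene, was higher by 0.36 ± 0.09 (SE, adjusted p = 0.0258). Lef1, a transcriptional partner of beta-catenin, had 721 and 548 in Survivin LOF libraries and 1213 and 1168 in Inv libraries, a log2 difference of -0.92 ± 0.26 (adjusted p = 0.0444). Nfib had 27403 and 30688 in Survivin LOF libraries and 25808 and 27631 in Inv libraries, which overlap. When a library was left out, 1 of the 18 was called higher and 0 lower.

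Among signalling genes the higher calls outnumbered the lower ones. Over all genes tested, 4.99% were called higher, 7.31% lower and 52% lay within 2-fold. Of 24 Wnt pathway genes, 9 were called higher and 2 lower. The ligand gene Wnt7b had 3479 and 2997 normalized counts in Survivin LOF libraries and 1288 and 1084 in Inv libraries, and Wnt10a had 845 and 670 in Survivin LOF libraries and 374 and 328 in Inv libraries. The noncanonical ligand gene Wnt5a went the other way, with 303 and 260 in Survivin LOF libraries, 895 and 861 in Inv libraries and 973 to 1153 in Krt14 SmoM2 libraries, so all 4 libraries were below that range and the Survivin LOF ones furthest. Ctnnb1, which encodes beta-catenin, had 25560 and 23780 in Survivin LOF libraries and 26254 and 27028 in Inv libraries. Of 15 Notch pathway genes, 4 were called higher, among them the coactivator gene Maml2 at 2736 and 2690 in Survivin LOF libraries and 1029 and 1175 in Inv libraries. Rbpj, the DNA-binding factor of the pathway, was called lower, at 759 and 745 in Survivin LOF libraries and 1225 and 1554 in Inv libraries. Leaving out 1 library gave 3 to 5 higher Wnt genes and 1 to 3 higher Notch genes.

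Of 24 TGF-beta and BMP genes, 6 were called higher, 0 lower and 16 lay within 2-fold. The shares over all genes were 4.99%, 7.31% and 52%. The receptor gene Tgfbr2 had 2344 and 2519 normalized counts in Survivin LOF libraries and 1416 and 1450 in Inv libraries (log2 difference 0.76 ± 0.10, adjusted p = 0.000617). Tgfbi, an induced matrix protein gene, had 10756 and 11957 in Survivin LOF libraries and 4783 and 4729 in Inv libraries. Of 17 YAP and TAZ genes, 7 were called higher and 0 lower. Vgll3, a TEAD cofactor gene, had 144 and 228 in Survivin LOF libraries, 14 and 16 in Inv libraries and 65 to 171 in Krt14 SmoM2 libraries, so the Inv libraries were below that range. Of 24 genes of SGK, PI3K and mTOR signalling, 3 were called higher, 1 lower and 16 lay within 2-fold, a called share near the 12.3% of all genes. Sgk3, a kinase gene, had 2012 and 1951 in Survivin LOF libraries and 1261 and 1491 in Inv libraries, while Mtor had 1794 and 1883 in Survivin LOF libraries and 2426 and 2326 in Inv libraries. Sgk1, a kinase gene named after its values were seen, had 1044 and 1410 in Survivin LOF libraries and 892 and 901 in Inv libraries, against 7851 to 10458 in Krt14 SmoM2 libraries. With 1 library left out, 3 to 5 of the TGF-beta and BMP genes, 2 to 6 of the YAP and TAZ genes and 0 or 1 of the SGK, PI3K and mTOR genes were called higher.

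**Figure D4:**
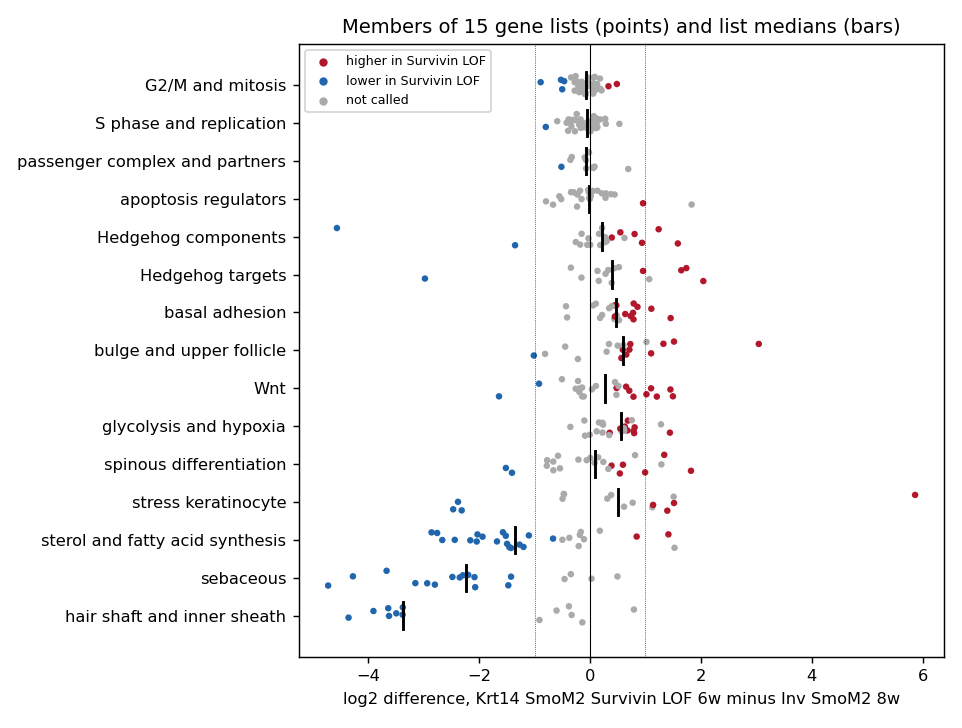
Log2 difference (Survivin LOF minus Inv, x axis) of the tested members of 15 gene lists (rows), one point a gene, with the list median as a bar and dotted lines at 2-fold. Cell cycle lists cluster at 0, the basal adhesion median is 0.461, and the sterol, sebaceous and hair shaft medians are -1.348, -2.245 and -3.377.

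Differentiation genes did not order the 2 states simply. Of 23 spinous genes, 6 were called higher and 2 lower, and 10 lay within 2-fold. The shares over all genes tested were 4.99%, 7.31% and 52%. Krt10, the suprabasal keratin gene, had 9438 and 6692 normalized counts in Survivin LOF libraries and 11766 and 11958 in Inv libraries and was not called (adjusted p = 0.206). Ivl, the gene whose promoter drives the Inv allele, had 35 and 32 in Survivin LOF libraries and 78 and 43 in Inv libraries (adjusted p = 0.19). All 4 libraries were below the 165 to 258 of the Krt14 SmoM2 libraries. Calml3, a calmodulin-like gene of differentiating cells, had 442 and 670 in Survivin LOF libraries and 1532 and 1590 in Inv libraries. Serpinb2, a protease inhibitor gene, had 528 and 515 in Survivin LOF libraries and 171 and 247 in Inv libraries, against 3089 to 6776 in Krt14 SmoM2 libraries. Of 20 granular and cornified layer genes, 3 were called higher and 1 lower. The cornified envelope scaffolds Evpl and Ppl were among the higher, Evpl at 6777 and 6739 in Survivin LOF libraries and 2694 and 2516 in Inv libraries and Ppl at 10298 and 9797 in Survivin LOF libraries and 4530 and 4250 in Inv libraries. Tgm1, the transglutaminase that crosslinks that envelope, was at 8 and 14 in Survivin LOF libraries and 32 and 32 in Inv libraries. The higher calls among the 23 spinous genes were 0 to 3 with 1 library left out.

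Stress and wound keratinocyte genes were far below Krt14 SmoM2 cells in both states. Of 16 genes tested, 14 fell against Krt14 SmoM2 cells of the same week in Survivin LOF cells and 14 fell in Inv cells. The shares of all genes tested that fell were 11.7% and 8.36%. Between the 2 states 4 were called higher and 3 lower, against 4.99% and 7.31% of all genes tested. Krt6a, a wound keratin gene with a near-identical neighbour that could share its reads, named after its values were seen, had 3806 and 1818 normalized counts in Survivin LOF libraries and 997 and 1003 in Inv libraries, against 31648 to 53795 in Krt14 SmoM2 libraries. Gjb6, a connexin gene, had 726 and 625 in Survivin LOF libraries and 308 and 303 in Inv libraries. Fabp5, an epidermal fatty acid carrier gene, had 1564 and 2140 in Survivin LOF libraries, 9468 and 9610 in Inv libraries and 3148 to 4694 in Krt14 SmoM2 libraries, so the 2 states lay on opposite sides of that range. Slpi, a secreted protease inhibitor gene, had 3 and 7 in Survivin LOF libraries and 23 and 32 in Inv libraries, against 294 to 621 in Krt14 SmoM2 libraries.

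Lipid synthesis genes were mostly lower in Survivin LOF cells than in Inv cells. Of 28 genes of sterol and fatty acid synthesis, 18 were called lower, against 7.31% of all genes tested, and 2 higher, with a median log2 difference of -1.348. Msmo1, a sterol methyl oxidase gene, had 1544 and 1608 normalized counts in Survivin LOF libraries, against 11297 and 11577 in Inv libraries, and 2009 and 2312 in Krt14 SmoM2 libraries at 6 weeks and 3304 and 3017 at 8 weeks. The Inv libraries were the ones above every Krt14 value. Its log2 difference was -2.86 ± 0.14 (SE, adjusted p = 1.32e-06), which is 7.26-fold lower. The desaturase genes Fads1 and Fads2 went the other way, with Fads2 at 2287 and 2190 in Survivin LOF libraries and 915 and 770 in Inv libraries. Scd2, another desaturase gene, had 8130 and 8007 in Survivin LOF libraries and 10680 and 10227 in Inv libraries and was not called (adjusted p = 0.406). Against Krt14 SmoM2 cells of the same week, 9 of the 28 rose and 5 fell in Survivin LOF cells, and 17 rose and 2 fell in Inv cells. Of all genes tested, 21.5% rose and 11.7% fell in Survivin LOF cells, and 12.6% rose and 8.36% fell in Inv cells. Summed over the 28 genes, normalized counts were 74163 and 77599 in Survivin LOF libraries, 222935 and 218881 in Inv libraries, and 62004 to 97372 in the other 6 libraries. The difference of the differences from Krt14 was called negative for 13 and positive for 2 of the 28, against 1.7% and 2.12% of all genes tested. With 1 of the 4 libraries left out, 16 or 17 were called lower and 0 higher.

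Sterol genes are switched on by SREBP factors at sterol regulatory elements, so promoters of the list were searched for TCACCCCAC, the letters of the element of the LDL receptor gene promoter, on either strand. RefSeq promoters on GRCm38.p6, from 250 bases before to 50 after the start, were at hand for 18 of the 28 genes. The 9 letters occurred in 1 of the 18, Hmgcs1, and in 0.551% of 32851 promoters. A second search, for the Gli site letters GACCACCCA in promoters of the Hedgehog targets, found them in 0 of the 8 genes with a promoter at hand. They occurred in 0.253% of the 32851 promoters. A match is a description of letters, and its absence elsewhere says nothing of the factors. Hmgcs1, the synthase that feeds the mevalonate pathway and is named for this match, had 7044 and 7727 normalized counts in Survivin LOF libraries and 20420 and 21911 in Inv libraries. The difference of its differences from Krt14 was -0.95 ± 0.15 on the log2 scale (adjusted p = 0.00559). Its promoter at chr13:119690101-119690400 (plus strand) is shown for the element, in capitals, which begins 137 bases before the start.
Hmgcs1 promoter: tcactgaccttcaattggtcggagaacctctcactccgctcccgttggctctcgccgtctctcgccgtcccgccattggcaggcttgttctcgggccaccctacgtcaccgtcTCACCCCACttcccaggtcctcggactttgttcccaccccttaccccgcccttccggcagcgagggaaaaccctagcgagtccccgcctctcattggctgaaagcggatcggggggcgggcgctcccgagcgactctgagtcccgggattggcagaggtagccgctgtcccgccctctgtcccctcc

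Sebaceous gland genes, which hold several enzymes of lipid synthesis, were lower too. The share called lower over all genes tested was 7.31%. Of 18 tested, 14 were called lower and 0 higher, with a median log2 difference of -2.245, and 14 were again called lower with each of the 4 libraries left out. Soat1, which esterifies cholesterol, had 2178 and 2891 normalized counts in Survivin LOF libraries, 13750 and 14320 in Inv libraries and 614 and 610 in Krt14 SmoM2 libraries at 6 weeks and 3075 and 2948 at 8 weeks. Elovl3, an elongase gene of sebocytes and hair follicles, had 216 and 334 in Survivin LOF libraries, 3409 and 3451 in Inv libraries and 70 and 62 in Krt14 SmoM2 libraries at 6 weeks and 484 and 470 at 8 weeks. For both genes the Survivin LOF libraries lay between the 6-week and 8-week Krt14 values, and the Inv libraries lay above all. Elovl5, a widely expressed elongase gene, had 1128 and 981 in Survivin LOF libraries and 1047 and 1019 in Inv libraries, within 2-fold. Of the 18, set against Krt14 SmoM2 cells of the same week, 12 rose in Survivin LOF cells and 15 in Inv cells, against 21.5% and 12.6% of all genes tested. The difference of the differences was called negative for 4 of the 18, against 1.7% of all genes tested. In sorted bulk cells, fewer cells of a type and less RNA per cell cannot be told apart.

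Several hair shaft and inner sheath genes were lower as well, where 7.31% of all genes tested were called lower. Of 13 tested, 7 were called lower and 0 higher, with a median log2 difference of -3.377, or -2.641 with the 1 gene under the floor set to its bound. Krt84, a hard keratin gene, had 739 and 131 normalized counts in Survivin LOF libraries, 6803 and 6016 in Inv libraries and 8 to 17 in Krt14 SmoM2 libraries. Both states were thus above the Krt14 range, and the 2 Survivin LOF libraries differed widely from each other. Krt25, an inner root sheath keratin gene, had 8 and 5 in Survivin LOF libraries and 94 and 127 in Inv libraries, with the Survivin LOF values at or near the floor. Hoxc13, the transcription factor gene of the hair cortex, had 831 and 787 in Survivin LOF libraries and 1054 and 983 in Inv libraries and lay within 2-fold. With 1 library left out, 5 or 6 of the 13 were called lower.

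Several glycolysis and hypoxia genes were higher in Survivin LOF cells. Of 24 tested, 9 were called higher, against 4.99% of all genes tested, 0 lower and 15 lay within 2-fold, against 52%. Their median log2 difference was 0.556. Slc2a1, the glucose transporter gene, had 3779 and 2943 normalized counts in Survivin LOF libraries, 1254 and 1202 in Inv libraries and 3649 to 5746 in Krt14 SmoM2 libraries. Survivin LOF library 1 was within that range and library 2 below it, and both Inv libraries were further below. Pfkp, a phosphofructokinase gene, had 2614 and 2307 in Survivin LOF libraries and 1416 and 1432 in Inv libraries (log2 difference 0.79 ± 0.11, adjusted p = 0.00102). Pkm, a pyruvate kinase gene, had 12542 and 10101 in Survivin LOF libraries and 10100 and 9053 in Inv libraries and was not called (adjusted p = 0.239). With 1 library left out, 3 to 7 were called higher. Of the 24, set against Krt14 SmoM2 cells of the same week, 13 fell in Survivin LOF cells and 12 in Inv cells, against 11.7% and 8.36% of all genes tested. Of 12 mitochondrially encoded genes, 3 were called lower, against 7.31% of all genes tested. Among them, mt-Co1 had 99914 and 93950 in Survivin LOF libraries and 118891 and 134473 in Inv libraries. Mitochondrial genes took 2.227% and 2.137% of normalized counts in Survivin LOF libraries and 2.472% and 3.107% in Inv libraries.

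**Figure D5:**
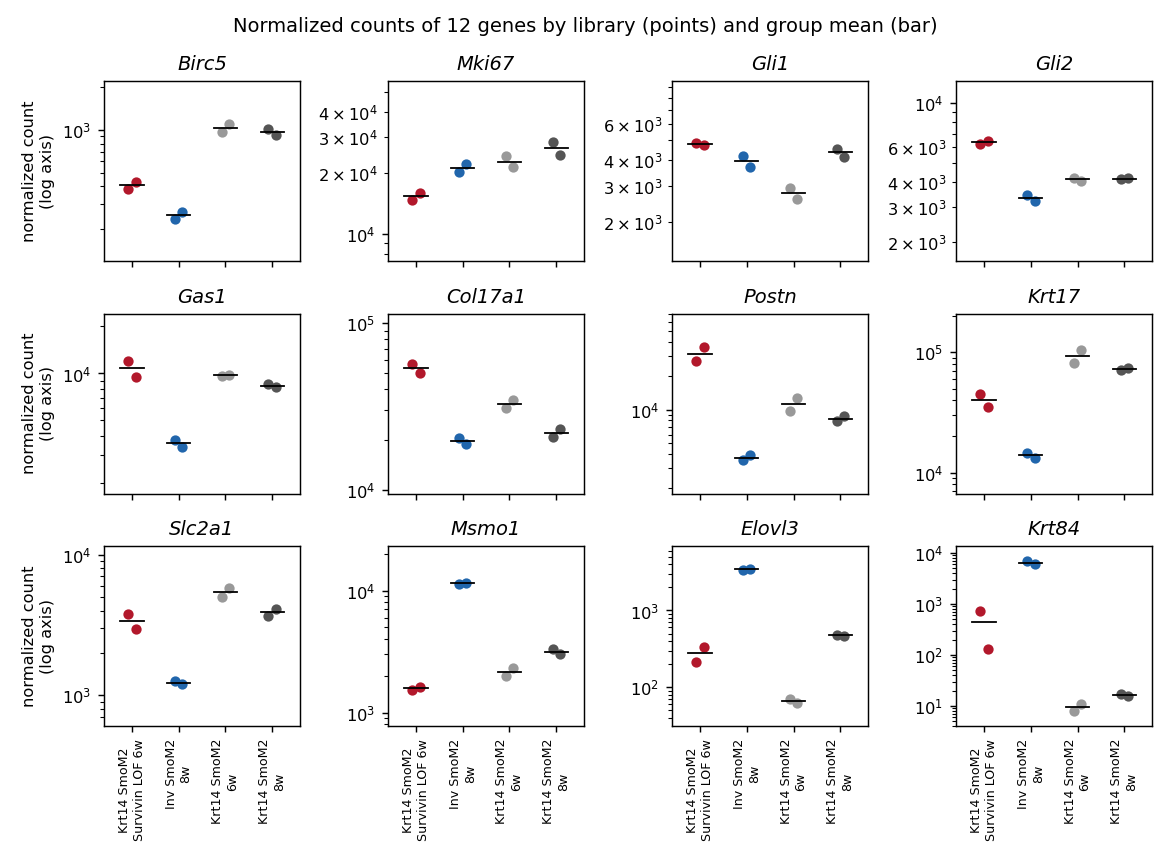
Normalized counts (log axis) of 12 genes in the 2 libraries of each of 4 groups (points), with the group mean as a bar. Birc5 lies below Krt14 SmoM2 in both states, Gas1, Col17a1, Postn, Krt17 and Slc2a1 are higher in Survivin LOF than in Inv libraries, and Msmo1, Elovl3 and Krt84 are lower.

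Secretory, stress-response and immune genes were mixed. For comparison, 4.99% of all genes tested were called higher, 7.31% lower and 52% lay within 2-fold. Of 22 senescence and secretory genes, 3 were called higher and 5 lower. Il33, an alarmin gene, had 1237 and 1058 normalized counts in Survivin LOF libraries and 342 and 378 in Inv libraries, and Mmp9, a matrix protease gene, had 15 and 3 in Survivin LOF libraries and 187 and 140 in Inv libraries. Tnf had 13 and 16 in Survivin LOF libraries and 82 and 104 in Inv libraries, against 77 to 112 in Krt14 SmoM2 libraries, so the Survivin LOF libraries were below that range. Of 28 immediate early and dissociation genes, 3 were called higher, 2 lower and 15 lay within 2-fold, the last near the share of all genes. The heat shock genes Hspa1a and Hspa1b, near-identical copies that could share reads, were higher, Hspa1a at 1752 and 1725 in Survivin LOF libraries and 997 and 813 in Inv libraries. Of 18 interferon response genes, 1 was called, Cxcl10, at 20 and 43 in Survivin LOF libraries, 396 and 380 in Inv libraries and 23 to 37 in Krt14 SmoM2 libraries. Of 15 antigen presentation genes, 1 was called, H2-T23, at 578 and 515 in Survivin LOF libraries, 167 and 134 in Inv libraries and 182 to 213 in Krt14 SmoM2 libraries.

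Markers of other cells that the sort could hold were counted as whole lists. The shares called over all genes tested were 4.99% higher and 7.31% lower. Of 11 melanocyte genes, 1 was called, Mitf, at 1083 and 1087 in Survivin LOF libraries and 556 and 549 in Inv libraries, while the pigment gene Dct had 669 and 654 in Survivin LOF libraries and 606 and 707 in Inv libraries. The 12 melanocyte genes summed to 3341 and 3124 normalized counts in Survivin LOF libraries and 2546 and 2628 in Inv libraries. Of 9 Langerhans and dendritic genes, 3 were called higher: the class II antigen genes H2-Aa and H2-Eb1, and Epcam, which epithelial cells also express. H2-Eb1 had 127 and 181 in Survivin LOF libraries and 39 and 21 in Inv libraries, and the defining gene Cd207 had 25 and 55 in Survivin LOF libraries and 12 and 10 in Inv libraries. The class II gene H2-Ab1 was not higher, at 110 and 217 in Survivin LOF libraries and 192 and 197 in Inv libraries, and lay within 2-fold. That list summed to 4354 and 5069 in Survivin LOF libraries and 2897 and 2721 in Inv libraries. Most of the sum was Epcam, at 3249 and 3049 in Survivin LOF libraries and 1789 and 1685 in Inv libraries, so it says little of Langerhans or dendritic cells. T cell genes gave 1 call of 4, Skint1, which keratinocytes express, and Cd3e and Cd3g were at 5 or less in all 4 libraries. Neutrophil and macrophage genes gave 1 call of 4, Il1r2, at 124 and 174 in Survivin LOF libraries and 28 and 14 in Inv libraries, and Ly6g and Csf3r were at 0 in all 4 libraries. The T cell list summed to 741 and 478 in Survivin LOF libraries and 707 and 784 in Inv libraries, and the neutrophil and macrophage list to 344 and 309 in Survivin LOF libraries and 174 and 108 in Inv libraries.

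Of 10 fibroblast genes, 1 was called, against 12.3% of all genes tested. It was Col6a1, at 1071 and 900 normalized counts in Survivin LOF libraries and 367 and 355 in Inv libraries. The matrix gene Dcn had 17993 and 18053 in Survivin LOF libraries and 17515 and 19565 in Inv libraries, against 1163 to 2235 in Krt14 SmoM2 libraries. For Dcn both states were therefore far above that range and level with each other. The fibroblast genes Dpt and Mfap5 were at 0 in all 4 libraries. The list summed to 22122 and 22372 in Survivin LOF libraries and 20617 and 22523 in Inv libraries, most of it Dcn, and to 6322 to 7904 in Krt14 SmoM2 libraries. Without Dcn, the rest of the list summed to less in both states than in the Krt14 SmoM2 libraries. The rise of Dcn is therefore not a trait of the whole list. Of 7 endothelial and pericyte genes, 3 were called lower and 1 higher. Kdr was at 0 and 0 in Survivin LOF libraries, under the floor, and at 30 and 37 in Inv libraries, and Pecam1 had 70 and 75 in Survivin LOF libraries and 162 and 183 in Inv libraries. That list summed to 6963 and 6939 in Survivin LOF libraries and 6071 and 5034 in Inv libraries, most of it Cspg4. No Merkel and neural gene was called out of 5 tested, and that list summed to 226 and 211 in Survivin LOF libraries and 191 and 204 in Inv libraries. The part of these cells in the differences above was not tested.

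The largest differences over all protein-coding genes with a mean of at least 50 fell mostly on genes outside these lists. Among the rises, Dio2, which encodes the deiodinase that activates thyroid hormone, had 1757 and 1218 normalized counts in Survivin LOF libraries, 85 and 98 in Inv libraries and 791 to 1881 in Krt14 SmoM2 libraries. Dio2 was thus below the Krt14 range in Inv libraries, and it was also low in Survivin-GOF libraries, at 80 and 58. Npy1r, a neuropeptide Y receptor gene, had 357 and 503 in Survivin LOF libraries and 12 and 21 in Inv libraries, and 0 to 12 in Krt14 SmoM2 libraries, so the Survivin LOF libraries were above that range. Grk3, a receptor kinase gene, and Trim12a, a tripartite motif gene with close copies, had the same pattern. Grk3 had 124 and 176 in Survivin LOF libraries against 7 and 10 in Inv libraries, and Trim12a had 77 and 111 in Survivin LOF libraries against 7 and 10 in Inv libraries. Plcl1 had 107 and 147 in Survivin LOF libraries and 10 and 5 in Inv libraries. Gypc, a membrane skeleton gene, had 186 and 237 in Survivin LOF libraries and 5 and 5 in Inv libraries, the last under the floor. Stfa1, a stefin gene with near-identical copies whose reads the counting could split, had 276 and 48 in Survivin LOF libraries and 0 and 3 in Inv libraries, so its replicates differed widely. Gypc and Stfa1 passed the filter only through the Survivin LOF libraries, so they could only come out higher.

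The largest falls were genes close to absent from Survivin LOF cells. All but Gabrp and Serpina3a were under 10 in both Survivin LOF libraries. They passed the filter only through the Inv libraries, so they could only come out lower and near absent. Gabrp, a GABA receptor subunit gene, had 3 and 10 normalized counts in Survivin LOF libraries, 253 and 308 in Inv libraries and 0 in all 4 Krt14 SmoM2 libraries. Serpina3a, a serine protease inhibitor gene of a multigene cluster, had 25 and 7 in Survivin LOF libraries and 533 and 551 in Inv libraries, and 0 to 10 in Krt14 SmoM2 libraries. Spib, an Ets family factor gene, had 3 and 3 in Survivin LOF libraries and 155 and 120 in Inv libraries. Il23a, an interleukin subunit gene, had 5 and 0 in Survivin LOF libraries and 121 and 161 in Inv libraries. Cadps2 had 0 and 5 in Survivin LOF libraries and 178 and 154 in Inv libraries, Gbp9 had 3 and 0 in Survivin LOF libraries and 110 and 98 in Inv libraries, Zfp979 had 0 and 0 in Survivin LOF libraries and 119 and 95 in Inv libraries, and Cntnap4 had 0 and 0 in Survivin LOF libraries and 119 and 109 in Inv libraries. All 8 were between 0 and 21 in the Krt14 SmoM2 libraries, below the Inv libraries. Most were also raised in the Survivin-GOF libraries, where Gbp9 had 246 and 143 and Serpina3a had 246 and 167.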

How the data were processed

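RNA of sorted SmoM2-YFP cells had been made into Ovation Solo libraries, per the labels' protocols. The authors' deposited values are normalized counts, a score rather than raw counts: gene counts were scaled to nearly the same sum in every library and rounded up to whole numbers. STAR, HTSeq and GRCm38 (mm10) are named in the submitters' processing notes, with neither versions nor the strand setting of the counting. Gene symbols came from the GENCODE M21 names at hand, which matched 49412 of 49671 identifiers. Between 99.32% and 99.94% of values per library came out as whole reads after undoing the scaling, which gave the recovered depth and a floor of 3 reads.

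A count test was not used as the main test because the unit is not counts. Values were analysed as log2(value + 1) with limma 3.58.1 in R 4.3.3, with 1 mean for each of the 5 groups over all 10 libraries, an intensity trend and Benjamini-Hochberg adjustment over the 20194 genes that reached 10 in 2 or more of the 4 libraries. A gene was called at an adjusted p under 0.05, and counted as within 2-fold where the limma 95% interval lay inside 1 log2 unit. Fold changes are on that log2(value + 1) scale and understate those of low genes. An exact permutation of 2 libraries against 2 cannot go below a two-sided p of 0.333 and was not used. The scripts were tested on simulated data.

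Genes were named by a rule: the targeted gene and markers of the alleles and layers (Birc5, Krt14, Ivl, Krt10, Smo, Ptch1, Gli1), the 8 largest called rises and falls among protein-coding genes with a mean of at least 50 whose groups did not overlap, and up to 2 called genes in each direction and 1 gene within 2-fold from each list. Not every gene so picked is described. A few others are said to be named after their values were seen, or appear as markers. The question and the gene lists were chosen with earlier results of these data known. Sequences are RefSeq promoters on GRCm38.p6. Alternatives covered the pseudocount, low-value filters, scaling, libraries in the fit, array weights, left-out libraries, a replicate block, thresholds, sex chromosome genes and Xist. Limma-voom on the recovered reads and leaving out Krt14 libraries were added after seeing the data.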

Additional observations from a re-analysis of the deposited data

How the results depend on the processing

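The count of 2484 genes called between Survivin LOF and Inv cells was 4157 in a fit without the Survivin-GOF libraries, 4371 with array weights, 1062 at an adjusted p of 0.01, 1299 with at least 2-fold, 599 with Xist as a term and 814 to 1373 with 1 library left out. The 10501 genes within 2-fold were 1440 with Xist as a term and 8955 to 9117 with 1 library left out. The 771 genes called for the difference of the differences were 389 with no filter, 1872 over the compared groups or without the Survivin-GOF libraries, 1875 with array weights, 232 at an adjusted p of 0.01, 342 with Xist as a term and 210 to 538 with 1 library left out. With Xist as a term the log2 difference reversed for Birc5 (-1.54), Krt10 (1.58), Jag2 (-0.054), Dusp2 (1.01), Lef1 (0.33), Mki67 (0.23), Cntnap4 (4.47), Stk36 (0.54), Dsc1 (0.13), Cenpe (0.47), mt-Nd1 (0.29), Uty (2.26) and Eif2s3y (1.94). The cause was not tested. The rule named 134 genes, some of which, such as Ccnd2, were not called in the main fit. With Xist as a term, 72 of them lost their call with the direction kept, apart from the 13 that reversed. Calls of named genes were also lost with 1 library left out. Limma-voom on recovered reads gave 2830, 10734 and 758 for the same 3 counts. Same-numbered Survivin LOF and Inv libraries did not deviate together (correlation 0.0549), so the numbers do not pair them, and the fit with a replicate block gave 2417, 10515 and 763.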
